A study of Mus musculus with 15 samples.

Results

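The genes that encode the proteins of the cytosolic ribosome were examined in 15 mouse libraries. Members were taken by name: loci whose gene symbol is Rpl or Rps followed by a digit, or Rpsa, Rplp0, Rplp1 or Rplp2, without Rps6k kinases and names of pseudogenes. This gave 86 of 23589 loci with a gene name. Of these, 77 encode core proteins of the ribosome (31 of the small and 46 of the large subunit) and are called core members, 8 are paralogs, and 1, Rps19bp1, encodes a protein that binds Rps19 and is not part of the ribosome. Each member had its own locus. The loci of Rps7, Rpl30, Rpl34 and Rpl13a also carry the name of another gene, and 10 members lie on a locus over 3 times as long as the RefSeq gene, so that reads of other genes may be among their counts. Ribosomal protein genes have many processed pseudogenes, and how the aligner placed reads shared with them is not given in the sources used here, so single counts may be split or pooled between near-identical copies.

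A ribosome holds 1 copy of nearly every core protein, and the cell makes these proteins in step with ribosomal RNA. Most of their mRNAs begin with a terminal oligopyrimidine tract, a C followed by a run of C and T, through which mTORC1 and Larp1 control translation when nutrients change. Dietary restriction lowers mTORC1 activity in several tissues, and that control acts on translation, so mRNA levels are only a part of it.

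Male C57BL/6 mice were fed ad libitum (AL), were restricted by 40% for 1 month from 4 months of age (DR), or were restricted in the same way and then fed AL for 2 months (DR-AL). AL and DR mice were 5 months and DR-AL mice 7 months of age, so diet and age cannot be told apart in DR-AL. RNA of liver, epididymal fat, colon, hypothalamus and hippocampus was pooled from 5 mice, and each tissue and diet gave 1 library. With 1 library in each group, no diet comparison has a replicate check, no p-value is given for it, and intervals are exact 95% Clopper-Pearson intervals that cover counting error only.

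Counts on named loci ranged from 21767088 in the DR liver to 40500130 in the AL hippocampus. Levels are given as CPM, which set each count against everything that fell on named loci in its library, and all 77 core members had a mean of at least 100 counts in every tissue. A member is said to be past the fold when its CPM differed by at least 1.25-fold between 2 libraries, and the share of all genes past the same fold, among those with a mean of at least 100 counts in the tissue, is given beside it. In tissue RNA, a change in the mix of cells and a change of RNA per cell cannot be told apart.

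The labelled tissues carried their own markers. The 12 liver markers summed to 58897, 62593 and 65277 CPM in AL, DR and DR-AL liver, although Alb was listed at 0 counts in every library. The 8 adipocyte markers summed to 40087, 33431 and 27624 CPM in fat, and the 10 markers of colon epithelium to 35329, 35619 and 35686 CPM in colon. The 10 hypothalamus markers summed to 1136, 976.5 and 889 CPM in hypothalamus, and the 10 hippocampal markers to 2287, 2287 and 2068 CPM in hippocampus. The fat libraries stood apart, because their markers of liver, testis and epididymis differed by diet, and those values are given with the fat results.

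Colon gave the largest share of its counts to core members and hippocampus the smallest. Core members took 3.81% (interval 3.81 to 3.82%) of the counts in AL colon, 3.99% in DR colon and 3.86% in DR-AL colon. In liver the shares were 2.16% (2.15 to 2.17%) for AL, 2.71% (2.70 to 2.71%) for DR and 2.56% (2.56 to 2.57%) for DR-AL. In fat they were 2.26%, 2.71% and 3.02%. The liver and fat libraries of the AL mice therefore had lower shares than those of the other diets. In hypothalamus the shares were 1.74%, 1.71% and 1.62%, and in hippocampus 1.32%, 1.30% and 1.34%, for AL, DR and DR-AL. The brain libraries differed little by diet, and the lowest colon share was above the highest share of any other tissue. Counts on the large subunit were between 1.43 and 1.66 times those on the small subunit, lowest in DR-AL liver and highest in AL hippocampus.

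**Figure D1:**
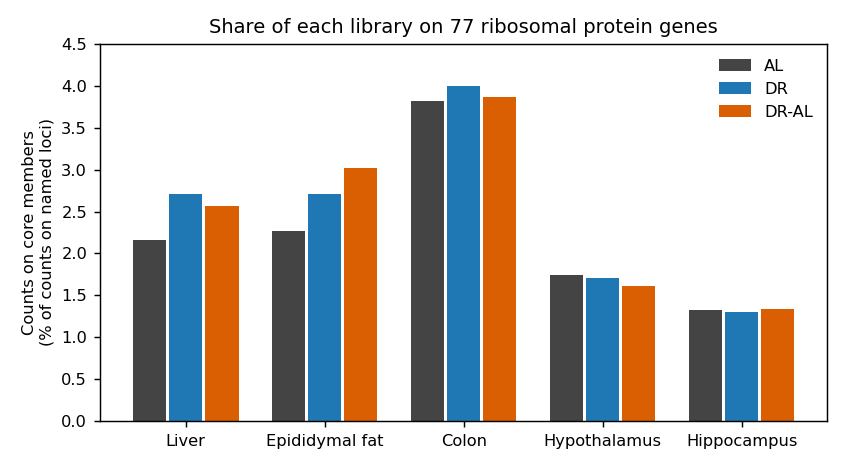
Percent of counts on named loci that fell on the 77 core ribosomal protein genes, 1 bar for each library, grouped by tissue and coloured by diet. Colon libraries lie between 3.81% and 3.99%, and hippocampus libraries between 1.30% and 1.34%.

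Levels of different genes can be compared per transcript length, in the FPKM values of the authors. Rpl41, which encodes the shortest ribosomal protein, Rps29 and Rps27 were among the members with the highest FPKM. Rpl41 stood at 2871 FPKM and Rps29 at 2524 FPKM in AL liver, against a median of 962 FPKM over core members. Rps15a had the lowest FPKM of the core members in all 15 libraries, 50.7 FPKM in AL liver, where it was at 109 CPM. Rpl22 was next lowest in all libraries of fat, colon, hypothalamus and hippocampus. The highest FPKM of a core member was 56.6 times the lowest in AL liver and 23.5 times in AL hypothalamus. In AL liver the low end was Rps15a alone, with Rpl21 next at 348 FPKM. In AL hypothalamus Rpl22 at 29.9 FPKM lay close to Rps15a at 26.5 FPKM. By CPM Rps15a was not lowest there, at 203 CPM against 52.8 CPM for Rpl39. The lengths used for FPKM are not given in the sources used here, so these ranges may in part reflect them.

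Each tissue has 3 libraries from different pools of mice, so tissues could be tested against the mean of the other tissues, with diet as a term. This test scaled libraries with TMM, whose factors were 0.552 to 0.582 in liver and 1.31 to 1.35 in hypothalamus, so its log2 differences are not those of CPM. The 5 tissues of a diet come from the same mice. In liver, 76 of 77 core members were higher and 0 lower, with a median log2 difference of 1.23, where 33.6% of the 17476 genes tested were higher and 41.0% lower. In colon, all 77 were higher, with a median of 1.11, where 33.3% of genes were higher and 37.8% lower. In hypothalamus 75 and in hippocampus 76 of 77 were lower and 0 higher in each, with medians of -1.05 and -1.17. Of all genes, 32.0% were lower and 38.8% higher in hypothalamus, and 34.4% were lower and 37.4% higher in hippocampus. In fat, 4 were higher and 11 lower, where 37.6% of genes were higher and 25.9% lower. The fat counts depended on single diets: the lower members numbered 8 without the AL libraries, 0 without the DR libraries and 7 without the DR-AL libraries, and the higher ones 1, 2 and 2. Of all genes, 24.2%, 18.1% and 23.9% were lower and 34.1%, 30.4% and 31.8% higher in the same order. With DESeq2, 6 were higher and 33 lower in fat, where 36.8% of genes were higher and 31.8% lower. The liver, fat and hypothalamus results depended on this scaling. In the same test on totals without TMM, 30 were higher and 4 lower in liver, with a median of 0.19, 49 were higher and 0 lower in fat, with a median of 0.36, and 2 were higher and 62 lower in hypothalamus, with a median of -0.55. Of all genes, 16.8% were then higher and 64.0% lower in liver, 54.4% and 12.7% in fat, and 52.4% and 19.9% in hypothalamus. On totals, all 77 were still higher in colon and 76 lower in hippocampus, with medians of 0.98 and -0.96, where 30.2% of all genes were higher and 40.9% lower in colon, and 42.2% higher and 29.2% lower in hippocampus. Core members were therefore high in colon and mostly low in both brain regions under both scalings, while how far liver stands above the other tissues cannot be told apart from the scaling.

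Rps18, near the head of the small subunit and a common RT-PCR reference, and Rps2 were the core members farthest above the other tissues in liver in the test with TMM. Rps18 was higher there by a log2 difference of 2.06 ± 0.09 (SE; edgeR quasi-likelihood, adjusted p = 8.49e-09) and Rps2 by 2.04 ± 0.12 (edgeR, adjusted p = 5.42e-08). On totals without TMM these differences were 1.03 and 1.01, and in CPM Rps18 was at 315 to 395 in liver and 383 to 407 in colon. Rplp0, which anchors the stalk that recruits elongation factors, led in colon at 2.28 ± 0.11 (edgeR, adjusted p = 1.26e-08), followed by Rpl18 at 1.73 ± 0.08 (edgeR, adjusted p = 7.99e-09). Rplp0 was also the lowest member in hypothalamus at -2.16 ± 0.15 (edgeR, adjusted p = 2.44e-07), followed by Rps18 at -1.75 ± 0.12 (edgeR, adjusted p = 1.61e-07). In hippocampus Rplp0 at -1.83 ± 0.15 (edgeR, adjusted p = 6.96e-07) and Rpl10 at -1.78 ± 0.17 (edgeR, adjusted p = 2.70e-06) were lowest. In fat the called members with the largest differences were Rplp2 at 0.76 ± 0.12 (edgeR, adjusted p = 0.000249) and Rps12 at 0.46 ± 0.12 (edgeR, adjusted p = 0.00693), and on the other side Rpl3 at -0.61 ± 0.14 (edgeR, adjusted p = 0.00299) and Rpl15 at -0.53 ± 0.13 (edgeR, adjusted p = 0.00426). Rpl3, whose protein reaches toward the peptidyl transferase centre, did not pass in liver with TMM, where its log2 difference was 0.06 ± 0.14 (edgeR, adjusted p = 0.732), but on totals it was lower there at -0.98 ± 0.15 (edgeR, adjusted p = 0.000105). In hypothalamus Rpl3 did not pass with TMM and was higher by 0.59 ± 0.13 on totals (edgeR, adjusted p = 0.00222). Rps15a, a small subunit protein, missed the threshold in hypothalamus with TMM at -0.19 ± 0.10 (edgeR, adjusted p = 0.102) and was higher there by 0.32 ± 0.10 on totals (edgeR, adjusted p = 0.0162). Rpl3 and Rpl15 in fat did not pass on totals.

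CPM values, scaled by totals, follow for the stalk. Rplp0 stood at 1517, 1538 and 1455 CPM in AL, DR and DR-AL colon, at 519.5, 503 and 624 CPM in liver and at 574, 726 and 819 CPM in fat. In hypothalamus it was at 191.5, 189 and 169 CPM and in hippocampus at 186, 185 and 186 CPM. In CPM, Rplp0 was thus highest in the colon libraries and lowest in the brain libraries. Rplp1 and Rplp2 form dimers on Rplp0. Rplp1 was at 541, 508 and 545 CPM in colon and at 241, 237 and 226 CPM in hypothalamus. Rplp2 was at 352, 313 and 396 CPM in fat, near its 295.5, 363 and 286 CPM in colon.

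DR was compared with AL to ask what 1 month of restriction did. In liver, 42 of 77 core members were higher by the fold or more and 0 lower, where 23.7% of all genes were past the fold upward and 14.9% downward. The median log2 fold change of core members was 0.35 and that of all genes 0.05. The middle members spanned 0.22 to 0.45. The large subunit had a median of 0.38 and the small subunit 0.30. With FPKM values of the authors 23 members were past the fold upward, where 16.5% of all genes were past it upward and 22.3% downward. The median with FPKM was 0.22, above the all-gene median of -0.05.

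Rps29 and Rpl38 were the members farthest up in DR liver. Rps29, a zinc-binding protein of the small subunit, was at 219 CPM in AL, 353 CPM in DR and 226 CPM in DR-AL liver, a log2 fold change of 0.68 (0.63 to 0.73) for DR. Rpl38, a large subunit protein that has been tied to the translation of Hox mRNAs, was at 91.3, 143.5 and 98.9 CPM, which is 0.65 (0.57 to 0.73) for DR. For both genes the DR library stood alone above the other liver libraries. Rpl9 and Rpl5 were at the other end, at -0.16 (-0.21 to -0.10) and -0.16 (-0.20 to -0.11), within the fold.

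In DR-AL liver the members parted from each other. Past the fold were 23 upward and 2 downward, where 20.1% of all genes were past it upward and 24.2% downward. The median was 0.17 and that of all genes -0.03, but values ran from -0.49 to 1.62. With FPKM the median was 0.08, that of all genes -0.07, and 5 members were past the fold downward, where 26.6% of all genes were. The SD among the 77 members was 0.36, against 0.19 for DR in liver and 0.08 for DR-AL in hippocampus. All genes that averaged 1000 counts or more spread more than the members in DR-AL liver, with an interquartile range of 0.53 against 0.37.

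Rps14 and Rps27 were highest in DR-AL liver. Rps14, which lies next to the mRNA path of the small subunit, was at 252 CPM in AL, 272 CPM in DR and 772 CPM in DR-AL liver, a log2 fold change of 1.62 (1.58 to 1.66). Rps27, a zinc-finger protein of the small subunit, was at 224, 254.5 and 493 CPM, a log2 fold change of 1.14 (1.09 to 1.18). The DR-AL library alone was high for both genes, and the AL and DR libraries lay close together. With the other scalings and with FPKM, Rps14 lay between 1.60 and 1.64 and Rps27 between 1.12 and 1.16. In fat, colon, hypothalamus and hippocampus Rps14 ranged from 152 to 546 CPM and stayed below its DR-AL liver level.

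Rpl5 and Rpl11 form a particle with 5S RNA that binds Mdm2 when ribosome assembly fails. Rpl5 was at 411, 369 and 747 CPM in AL, DR and DR-AL liver, that is, -0.16 (-0.20 to -0.11) for DR and 0.86 (0.83 to 0.90) for DR-AL on the log2 scale. Its locus is 86.6 kb long, where the RefSeq gene is 8.50 kb. Rpl11 was at 306, 401 and 515 CPM, with 0.39 (0.35 to 0.44) and 0.75 (0.71 to 0.79). Both were highest in DR-AL liver, but Rpl5 was lowest and Rpl11 intermediate in DR liver. Rpl22, for which mice can use the paralog Rpl22l1, was at 116, 129.5 and 195 CPM, with 0.15 (0.08 to 0.23) and 0.74 (0.68 to 0.81).

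The 2 members past the fold downward in DR-AL liver were Rpl29 and Rpl10. Rpl29 was at 177, 227 and 126 CPM in AL, DR and DR-AL liver, that is, 0.36 (0.30 to 0.42) for DR and -0.49 (-0.56 to -0.42) for DR-AL on the log2 scale. Rpl10, which joins the large subunit late in the cytoplasm, was at 628, 816 and 472 CPM, with 0.38 (0.35 to 0.41) and -0.41 (-0.44 to -0.38). Both were highest in DR liver and lowest in DR-AL liver. Rps6, the small subunit protein phosphorylated by S6 kinases, was at 472, 558 and 428 CPM, with 0.24 (0.20 to 0.28) and -0.14 (-0.18 to -0.10). Rpsa, the laminin receptor protein of the small subunit, was at 608, 869 and 803 CPM, with 0.51 (0.48 to 0.55) and 0.40 (0.37 to 0.43). These values differ by far more than counting error, and the spread between pools of mice is not known.

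Of genes used as references in RT-PCR, Rpl13a was past the fold in liver for both diets in CPM, Rps18 for DR alone and Rpl19 for neither. The DR values of Rpl13a and Rps18 lay close to the fold, which is 0.32 on the log2 scale. With FPKM both were within it for DR, Rpl13a at 887 in AL and 1020 in DR, and Rps18 at 1408 and 1698. Size factors and TMM, which lowered the DR median of core members in liver, also put both within the fold. Rpl13a was at 372, 472 and 656 CPM in AL, DR and DR-AL liver, that is, 0.34 (0.30 to 0.39) for DR and 0.82 (0.78 to 0.86) for DR-AL on the log2 scale. Rpl19 was at 441, 535 and 530.5 CPM, with 0.28 (0.24 to 0.32) and 0.27 (0.23 to 0.30). Rps18 was at 315, 395 and 362 CPM, with 0.33 (0.28 to 0.37) and 0.20 (0.16 to 0.25). All 3 were lowest in AL liver.

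**Figure D2:**
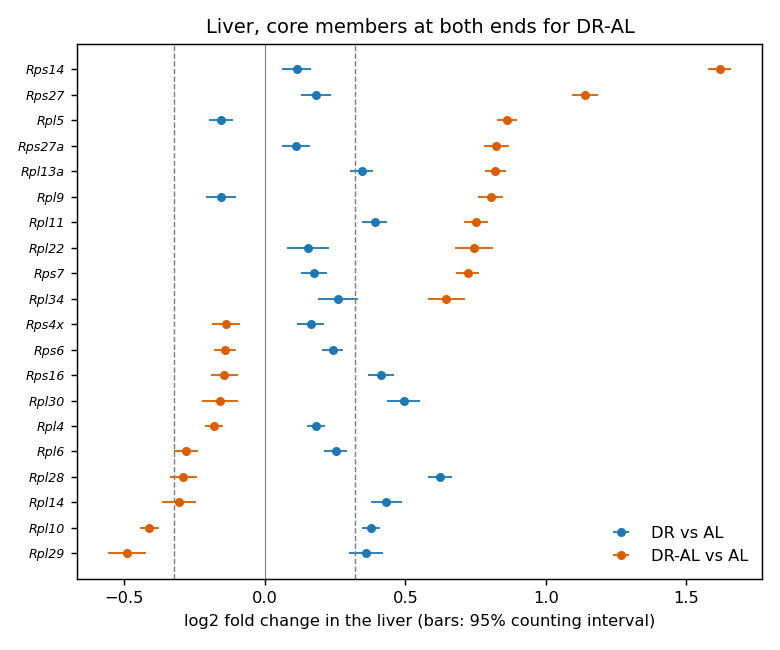
Log2 fold change in liver for DR and DR-AL against the same AL library, for the 10 highest and 10 lowest core members by DR-AL, with 95% counting intervals as bars and dashed lines at the 1.25-fold. Rps14 (1.62) and Rps27 (1.14) lead for DR-AL, and Rpl29 (-0.49) and Rpl10 (-0.41) are lowest.

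In epididymal fat, the median of all genes was shifted by this scaling, to a log2 fold change of 0.20 for DR and 0.25 for DR-AL. Core members had medians of 0.25 and 0.42, which is 0.06 and 0.17 above all genes. For DR, 23 of 77 were past the fold upward and 0 downward, where 38.0% of all genes were past it upward and 12.3% downward. For DR-AL, 62 were past it upward and 0 downward, where 45.1% of all genes were past it upward and 14.9% downward. Taken relative to the all-gene median, 1 member was past the fold upward for DR and 9 for DR-AL, and 1 and 0 were past it downward. Of all genes on that scale, 25.5% were past it upward and 21.6% downward for DR, and 31.9% and 26.8% for DR-AL. The direction in fat depends on the scaling: the DR-AL median was 0.08 with median-of-ratios size factors, -0.05 with TMM and -1.19 with FPKM, where all genes had -1.31. Against all genes, the DR-AL median with FPKM was 0.12 higher with a pseudocount of 0.1 and 0.14 lower with 1.

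Rps26, a small subunit protein at the mRNA exit channel, was farthest up in fat. It was at 187 CPM in AL, 283 CPM in DR and 378 CPM in DR-AL fat, that is, 0.60 (0.54 to 0.65) for DR and 1.01 (0.96 to 1.06) for DR-AL on the log2 scale. With FPKM it turned to -0.17 and -0.58, above the all-gene medians of -0.51 and -1.31 on that scale. For DR, Rpsa was next, at 629, 868 and 706 CPM, with 0.47 (0.44 to 0.50) for DR and 0.17 (0.14 to 0.20) for DR-AL. For DR-AL, Rps3 was next at 0.65 (0.61 to 0.69), on a locus of 102 kb where the RefSeq gene has 5.81 kb. With FPKM Rpsa was at -0.25 for DR and Rps3 at -1.04 for DR-AL, also above those all-gene medians. Lowest for DR were Rplp2 at -0.17 (-0.22 to -0.13) and Rpl35a at -0.04 (-0.10 to 0.02), and lowest for DR-AL was Rps2 at 0.06 (0.03 to 0.09).

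The fat libraries differed in markers of other tissues. The 12 liver markers summed to 7616, 84.8 and 26.9 CPM in AL, DR and DR-AL fat, led by Serpina3k with 1722 CPM in AL, and 1 of the 12, Alb, was at 0. The 9 testis germ cell markers summed to 5.34, 678 and 3368 CPM, led by Prm2, with 1 marker, Acrv1, at 0 in AL and none at 0 in DR or DR-AL. The 8 epididymis markers summed to 909, 3236 and 5125 CPM, led by Crisp1, with 2 markers, Lcn9 and Cst11, at 0 in AL, none in DR and 1, Lcn9, in DR-AL. The 9 leukocyte markers summed to 665.5, 792 and 865 CPM, led by Cd74, with none at 0. The part of these cells in the fat values of ribosomal protein genes was not tested.

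Colon and brain moved little. In colon, 0 of 77 core members were past the fold for DR, where 12.9% of all genes were past it upward and 11.6% downward, and 0 for DR-AL, where 7.86% and 10.9% were. The medians were 0.08 and 0.03, against 0.03 and 0.00 for all genes. For DR, Rplp2 at 0.30 (0.26 to 0.34) and Rpl14 at 0.27 (0.23 to 0.31) were highest, and Rps27 at -0.25 (-0.28 to -0.21) and Rpl41 at -0.20 (-0.22 to -0.17) lowest. For DR-AL, Rpl14 at 0.22 (0.17 to 0.26) and Rps26 at 0.22 (0.18 to 0.26) were highest, and Rpl39 at -0.22 (-0.28 to -0.15) and Rpl36 at -0.18 (-0.24 to -0.13) lowest. With FPKM, 1 member was past the fold upward for DR, where 11.2% of all genes were past it upward and 13.2% downward.

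In hypothalamus, 0 core members were past the fold for DR, where 5.22% of all genes were past it upward and 2.66% downward, and 0 for DR-AL, where 7.19% and 9.76% were. The medians were -0.04 for DR and -0.12 for DR-AL, against 0.01 and -0.02 for all genes. For DR-AL the middle members spanned -0.15 to -0.07. Rpl22 and Rpl35 were highest for DR at 0.14 (0.05 to 0.23) and 0.11 (0.05 to 0.17), and Rpl41 and Rps27 lowest at -0.18 (-0.23 to -0.14) and -0.11 (-0.17 to -0.06). For DR-AL, Rplp2 at -0.30 (-0.37 to -0.23) and Rps27 at -0.30 (-0.35 to -0.24) were lowest, and Rpl22 at 0.04 (-0.05 to 0.14) and Rps15a at 0.03 (-0.02 to 0.08) highest. The 10 colon markers summed to 28.3, 7.48 and 6.12 CPM in AL, DR and DR-AL hypothalamus, led by Lypd8 in AL, with 0, 2 and 2 markers at 0, and their part was not tested.

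In hippocampus, 0 core members were past the fold for DR, where 1.74% of all genes were past it upward and 2.95% downward, and 0 for DR-AL, where 5.13% and 2.55% were. The medians were -0.02 and 0.02, against 0.00 and 0.00 for all genes, and the DR median was 0.09 with FPKM, where all genes moved to 0.12. Rpl39 at 0.10 (-0.01 to 0.20) and Rps21 at 0.09 (0.02 to 0.16) were highest for DR, and Rpl28 at -0.16 (-0.22 to -0.10) and Rpl23a at -0.15 (-0.19 to -0.10) lowest. For DR-AL, Rpl13 at 0.22 (0.17 to 0.27) and Rps12 at 0.18 (0.11 to 0.25) were highest, and Rpl28 at -0.14 (-0.21 to -0.08) and Rpl7 at -0.14 (-0.19 to -0.09) lowest.

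**Figure D3:**
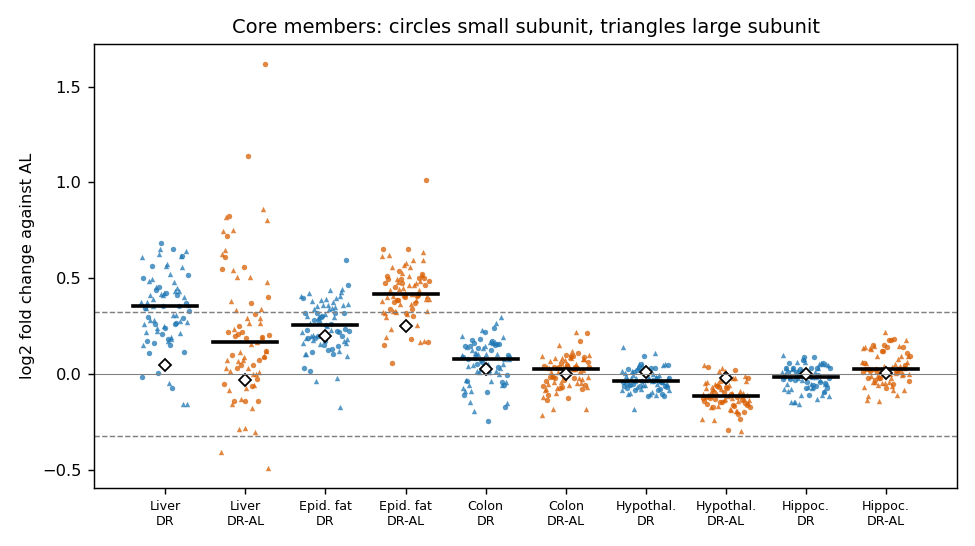
Log2 fold change of the 77 core members against AL in each tissue for DR (blue) and DR-AL (orange), with circles for the small and triangles for the large subunit, a black line at the members' median, an open diamond at the median of all genes, and dashed lines at the 1.25-fold. Members spread widest in DR-AL liver, from -0.49 to 1.62, no member passes the fold in colon, hypothalamus or hippocampus, and the direction in fat depends on the scaling.

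The paralogs add a small part to these counts. Together they had between 0.721% (AL colon) and 1.94% (AL liver) of the counts of core members. Some of them occur in few tissues in these libraries.

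Rpl10l, Rpl39l and Rpl3l had their highest counts in DR and DR-AL fat. Rpl10l, a retrocopy of Rpl10 used in male germ cells, had 0, 111 and 690 counts in AL, DR and DR-AL fat and 0 in every library of the other tissues. Against a floor of 3 counts for the AL library it was at least 42.5-fold higher in DR and at least 220-fold higher in DR-AL fat. These bounds leave out the counting error of the higher library, and with it the exact lower limits on the log2 scale were 5.09 for DR and 7.48 for DR-AL. Rpl39l, a testis paralog of Rpl39, had 1, 131 and 820 counts in fat, a ratio of 150 (26.5 to 5987) for DR and 786 (141 to 31076) for DR-AL, and at most 4 counts in any library of the other tissues. Rpl3l, the paralog of Rpl3 known from striated muscle, had 26, 178 and 580 counts in fat, and 11, 23 and 38 in liver. In fat all 3 were lowest in AL and highest in DR-AL, the order also of the summed markers of testis germ cells, epididymis and leukocytes given above. From which cells they came was not tested.

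**Figure D4:**
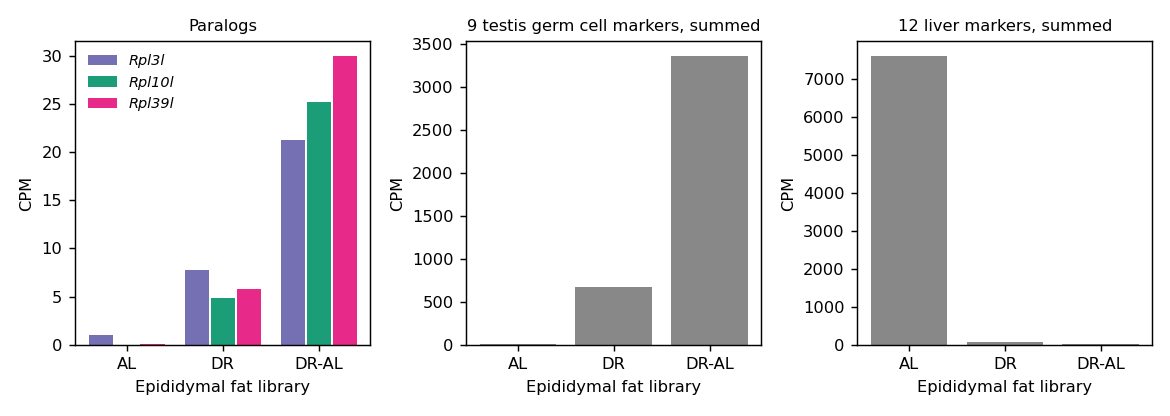
CPM in the 3 epididymal fat libraries of 3 paralogs (left), of the summed testis germ cell markers (middle) and of the summed liver markers (right), 1 bar for each library or gene. Rpl10l had 0 counts in AL and 690 in DR-AL fat, testis markers went from 5.34 to 3368 CPM, and liver markers from 7616 to 26.9 CPM.

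Rps27l, a p53 target that can replace Rps27, differed by tissue. It was at 141, 166 and 170 CPM in AL, DR and DR-AL liver, at 55.8, 60.8 and 47.6 CPM in fat and at 61.5, 66.5 and 64.5 CPM in colon. In hypothalamus it was at 8.90, 10.4 and 7.88 CPM and in hippocampus at 6.32, 6.98 and 7.27 CPM. Every liver library was above every other library, with a log2 difference of 3.91 ± 0.10 from the mean of the other tissues in the test with TMM (edgeR, adjusted p = 6.18e-10) and of 2.88 on totals. Per length, Rps27l had 0.385 of the FPKM of Rps27 in AL liver and 0.397 in DR liver, but 0.203 in DR-AL liver, where Rps27 was high.

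Rpl36al, Rpl22l1 and Rpl7l1 were detected in all tissues. Rpl36al, an intron-poor copy of Rpl36a, was at 177, 200.3 and 188 CPM in liver and between 44.0 and 60.7 CPM in the brain libraries, higher in liver by 2.36 ± 0.07 with TMM (edgeR, adjusted p = 9.38e-10) and by 1.33 on totals. Rpl22l1 was at 21.2, 36.5 and 37.8 CPM in AL, DR and DR-AL liver, that is, 0.78 (0.62 to 0.94) for DR and 0.83 (0.68 to 0.99) for DR-AL on the log2 scale, while in colon it was at 41.8, 41.7 and 34.6 CPM. In FPKM, Rpl22l1 exceeded Rpl22 in both brain regions, 3.65-fold in AL hypothalamus and 1.32-fold in AL hippocampus. It was below Rpl22 in the liver, fat and colon libraries. In CPM, Rpl22l1 was below Rpl22 in both brain regions too. The values were 59.4 against 61.5 CPM in AL hypothalamus and 28.6 against 82.0 CPM in AL hippocampus. Which of them is higher in brain thus depends on the measure. Rpl7l1, whose protein acts in ribosome assembly, was between 41.0 and 70.8 CPM in all libraries, and past the fold in colon for DR at 0.33 (0.24 to 0.43). With FPKM it went from 22.9 in AL to 28.1 in DR colon, within the fold. Rps4y2 lies on a locus of 397 kb where the RefSeq gene matched to it, Rps4l, has 0.941 kb, so its 104 to 1189 counts may belong to other transcripts. Rps19bp1 was between 9.19 and 17.3 CPM, with log2 fold changes past the fold for DR in liver, 0.41 (0.17 to 0.65), and for DR-AL in hypothalamus, 0.35 (0.13 to 0.58). Its FPKM in liver, 32.5 in AL and 39.5 in DR, differed by less than the fold.

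Fau encodes a ribosomal protein fused to a ubiquitin-like protein and falls outside the naming rule. In liver its log2 fold change was 0.38 for DR, past the fold, and 0.25 for DR-AL, within it.

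Other genes with a terminal oligopyrimidine tract, many of them elongation factors, had a lower median than core members in DR liver but a similar one in DR-AL liver. Of 20 such genes, 2 were past the fold upward and 2 downward in DR liver with a median of -0.01, where 23.7% and 14.9% of all genes were past it. In DR-AL liver 4 and 4 were, with a median of 0.15, where 20.1% and 24.2% of all genes were. Nap1l1, a histone chaperone, was lowest for DR at -0.80, and Eef2, which moves the ribosome along the mRNA, lowest for DR-AL at -0.75. Vim, the filament protein vimentin, was highest in both, at 0.45 and 0.63. In fat, where directions depend on the scaling, 12 of 20 were past the fold upward and 1 downward for DR-AL, led by Eef1d at 1.14, where 45.1% and 14.9% of all genes were. In brain 1 was past it, Vim in DR-AL hypothalamus at -0.62, where 7.19% of all genes were past it upward and 9.76% downward. In the other brain comparisons these shares were 5.22% and 2.66% (DR hypothalamus), 1.74% and 2.95% (DR hippocampus), and 5.13% and 2.55% (DR-AL hippocampus).

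Genes of ribosome assembly and RNA polymerase I had another pattern in colon than core members. In colon, 22 of 39 were past the fold upward and 0 downward for DR, with a median of 0.37, where 12.9% and 11.6% of all genes were. For DR-AL, 21 and 0 were, with a median of 0.33, where 7.86% and 10.9% of all genes were. No core member passed the fold in colon. Gnl3, the GTPase nucleostemin, led both at 0.84 and 0.85. The 7 markers of dividing cells summed to 182, 357 and 185 CPM in AL, DR and DR-AL colon, with none at 0 and Pcna or Mki67 highest, so they were high in DR alone. Their part in the colon values was not tested. In liver, 11 of 38 were past the fold upward and 2 downward for DR, where 23.7% and 14.9% of all genes were, from Nop56 at 0.63 to Tsr1 at -0.77. For DR-AL, 2 and 8 were, where 20.1% and 24.2% of all genes were, from Nip7 at 0.65 to Ncl, encoding nucleolin, at -0.74. In hypothalamus and hippocampus at most 1 of 39 was past the fold in a comparison. Of all genes, 1.74% to 7.19% were past it upward and 2.55% to 9.76% downward in these comparisons.

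Of 26 initiation factors and genes around mTORC1, 3 were past the fold upward and 4 downward in DR liver, where 23.7% and 14.9% of all genes were. In DR-AL liver 6 and 9 were, where 20.1% and 24.2% of all genes were. Eif2ak3, the kinase PERK, was highest in both at 0.82 and 0.60, and Myc, a driver of ribosome production, was lowest for DR at -1.15. In colon Sesn1, a leucine-responsive inhibitor of mTORC1, was lowest in both, at -0.85 and -0.49, and Myc was highest for DR-AL at 0.74. Deptor, a binding partner of mTOR, was lowest in hypothalamus at -0.34 and -0.62. Among the 7 host genes of small nucleolar RNAs (snoRNAs), Snhg5 was lowest in DR-AL liver at -1.03 and Snhg3 highest at 0.87.

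Several core members also host snoRNAs in their introns. By GENCODE M21, 30 of 77 contain 58 annotated snoRNA genes on their strand. On the log2 scale the median of the hosts was 0.40 in DR liver, against 0.34 for the 47 others, and 0.08 against 0.21 in DR-AL liver. This split was made after the data were seen. The core members lie on 19 chromosomes, 14 of them on chromosome 7 and 4 on the X.

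Some sequence features were more frequent near the starts of core members than in the whole promoter table, each in a minority of starts. RefSeq promoter windows of 300 bases (GRCm38.p6) were found for 57 of 77 core members, with 67 annotated starts. The start base lay in an unbroken run of C and T of at least 5 bases at 20 of 67 starts (29.9%), against 10.1% of the 32851 starts in the whole table. It was a C at 21 of 67 (31.3%), against 16.3%. The ETS-like motif CCGGAAG, on either strand, occurred in 25 of 67 windows (37.3%), against 8.86% of all. The YY1-like motif AAGATGGC, on either strand, occurred in 7 windows (10.4%) of 5 genes, 3 of them overlapping windows of Rpl35a, against 2.75%, and CTTTCC, on the strand of the transcript alone, in 26 (38.8%), against 14.1%. Counted once for each gene, CCGGAAG occurred in 24 of 57 core members (42.1%), against 9.93% of the 27025 genes in the table, AAGATGGC in 5 (8.77%), against 3.19%, and CTTTCC in 23 (40.4%), against 16.0%. Matches of different motifs may share bases, and many annotated starts lie outside a pyrimidine run.

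The windows around the start are shown for members at both ends of the DR-AL liver order, so that their start tracts can be read next to their values. Each has 30 bases from 10 before the annotated start base, on the strand of the transcript, with the run of C and T that holds the start base in capitals. Rps27 (chr3:90213629-90213658, minus strand) and Rpl5 (chr5:107900518-107900547, plus strand) were high in DR-AL liver, and Rpl14 (chr9:120571507-120571536, plus strand) and Rpl10 (chrX:74270806-74270835, plus strand) were low. Coordinates are those of RefSeq on GRCm38.p6 and cover the end of the promoter and the beginning of the transcript.
Rps27: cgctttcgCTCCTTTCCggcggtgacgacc
Rpl5: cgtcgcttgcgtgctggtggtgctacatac
Rpl14: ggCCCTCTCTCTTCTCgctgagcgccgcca
Rpl10: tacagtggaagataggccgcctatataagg
The run was 9 bases in Rps27 and 14 in Rpl14, with log2 fold changes of 1.14 and -0.30 for DR-AL liver, and the annotated starts of Rpl5 and Rpl10 were not in such a run. The members shown were chosen after the values were seen, and Rps14 and Rpl29, the farthest at each end, are not among them. No link between start tract and fold change, or lack of one, can be read from them.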

How the data were processed

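RNA-Seq libraries of 5 tissues under 3 diets were analysed, 1 pool of 5 mice each. The authors deposited counts, whole numbers without normalization, and FPKM values. The methods state that the data of a tissue were normalized to its AL group and quantified with DESeq. They do not name FPKM, so how the FPKM values were scaled between libraries is not stated in the sources used here. According to the methods, reads were trimmed, aligned with the strand kept, and duplicates were removed, which can lower the counts of short abundant genes. The submitters' processing notes name mm9 and DESeq2, while the methods name mm10, so file coordinates are not printed. Unnamed loci, at most 1.39% of a library, were left out. Loci sharing a name were summed for listed genes other than members.

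CPM and fold changes used totals on named loci, with a pseudocount of 0.5 for log2 values after scaling to the mean total of a tissue. Tissues were tested with the quasi-likelihood test of edgeR 4.0.16 (TMM, filterByExpr, diet as a term) and Benjamini-Hochberg adjustment over all genes, with a threshold of 0.05. DESeq2 1.42.0, totals without TMM, size factors, TMM, FPKM with pseudocounts of 0.1 and 1, and a fold of 1.5 were alternatives. Procedures were tested on simulated data. Members and lists were chosen with earlier results of these data known. Named are the 2 highest and 2 lowest core members of each comparison, stalk proteins, Rpsa, RT-PCR references, Rpl5, Rpl11, Rps6, Rpl22, all paralogs, and extremes of the other lists. The motifs, the sequences shown, the split by snoRNAs and the comparison of DR-AL with DR were chosen after the values were seen, as were other genes named. Python 3.11.15 and R 4.3.3 were used. Some results chosen by these rules are not reported here.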

Additional observations from a re-analysis of the deposited data

Results flagged for a closer look

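Some members were past the 1.25-fold in opposite directions in different tissues for DR-AL, each with a counting interval that excluded no change. Rpl10 had log2 fold changes of 0.61 in fat and -0.41 in liver, and Rpl29 0.39 in fat and -0.49 in liver. The locus of Rps4y2 had 0.90 in fat, -1.11 in colon and -0.41 in hypothalamus. Its interval in hypothalamus, -0.55 to -0.28, reached within the fold. The fat values depend on the scaling: Rpl10 had 0.28 with size factors, 0.14 with TMM and -0.98 with FPKM, Rpl29 had 0.05, -0.08 and -1.25, and Rps4y2 had 0.56, 0.43 and -0.72. With FPKM the median of all genes there was -1.31, or -1.04 with a pseudocount of 1, where Rpl29 at -1.24 lay below it. These differences between tissues were not tested. The 5 loci with the name of a ribosomal protein pseudogene and no member name, which the naming rule leaves out, summed to 479, 536 and 542 counts in AL, DR and DR-AL liver, a log2 fold change of 0.35 for DR, and to 1147, 1117 and 1516 counts in fat, 0.34 for DR-AL. Of these loci, 3 also carry the name of another gene, Wdr89, Gmeb1 or Zfp933, with 94, 179 and 115 of the counts in AL liver. Groups of 1 or 3 libraries were not examined for outlying samples.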

How the results depend on the processing

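Of 363 values computed in another way, 236 stayed the same by the rules used, 116 moved and 11 reversed. These 11 do not hold every change of sign. The DR medians in fat and hippocampus also changed sign with FPKM and are not among them. A median was judged by the counting interval of the member at the median, and a count by a ratio over 1.5. Values relative to the median of all genes, without members on merged or long loci, and of the tissue test on totals without TMM were added after the data were seen. The cause of the differences was not tested. For DR in liver the median of 0.35 became 0.27 with size factors, 0.26 with TMM and 0.22 with FPKM at both pseudocounts. The 42 members past the fold upward became 23 with FPKM, where 16.5% of all genes were, and 8 with a fold of 1.5. Shares of all genes past a fold of 1.5 are not given here. For DR-AL in liver the median of 0.17 became 0.0774 (0.0773 with a pseudocount of 1) with FPKM and 0.12 without members on merged or long loci. The 23 upward became 12 with a fold of 1.5, and the 2 downward became 5 with FPKM and 0 with a fold of 1.5. With FPKM 26.6% of all genes were past it downward.

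For DR in fat the median of 0.25 became 0.0674 with size factors, 0.0352 with TMM, 0.0556 relative to all genes and -0.49 with FPKM at both pseudocounts. The 23 upward became 1 with size factors, 1 with TMM, 1 relative to all genes, 1 with a fold of 1.5 and 0 with FPKM, and the 0 downward became 1, 1 and 1 with the first 3 of these and 67 with FPKM, where 67.8% of all genes were past it downward. Of all genes, 26.0% were past the 1.25-fold upward and 20.9% downward with size factors, and 24.5% and 23.2% with TMM. Relative to their median 25.5% and 21.6% were, and with FPKM 14.1% were past it upward. For DR-AL in fat the median of 0.42 became 0.0826 with size factors, -0.0514 with TMM, 0.17 relative to all genes and -1.19 with FPKM at both pseudocounts. The 62 upward became 1 with size factors, 1 with TMM and 9 relative to all genes. They became 8 with a fold of 1.5 and 0 with FPKM. The 0 downward became 1 with TMM and 77 with FPKM, where 82.3% of all genes were past the 1.25-fold downward. With size factors, 28.7% of all genes were past the 1.25-fold upward and 32.6% downward, and with TMM 25.0037% and 42.3% were. Relative to their median 31.9% and 26.8% were, and with FPKM 12.8% were past it upward. With FPKM, Rpsa for DR in fat turned from 0.47 to -0.25, Rps26 from 0.60 to -0.17 for DR and from 1.01 to -0.58 for DR-AL, and Rps3 for DR-AL from 0.65 to -1.04 or -1.03, depending on the pseudocount.

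With FPKM, 1 member was past the fold upward for DR in colon, where 11.2% of all genes were. The DR-AL median there became 0.0816, or 0.0815 with a pseudocount of 1. The DR median in hippocampus turned from -0.02 to 0.0881 (0.0879 with a pseudocount of 1) and the DR-AL median became 0.12, and the DR-AL median in hypothalamus became -0.0451, or -0.0449 with a pseudocount of 1. Without the 10 most abundant loci of each library, the shares of core members for AL, DR and DR-AL were 2.46, 3.15 and 2.95% in liver, 2.60, 3.02 and 3.28% in fat, 4.10, 4.28 and 4.14% in colon, 1.80, 1.76 and 1.67% in hypothalamus and 1.37, 1.34 and 1.38% in hippocampus. In the tissue test of fat, 2 were higher with size factors and 1 to 2 with a diet left out, and 33 were lower with DESeq2, 17 with size factors and 0 to 8 with a diet left out. Of all genes, 35.7% were higher and 28.0% lower with size factors, and 31.8% were lower with DESeq2. With a diet left out, 30.4% to 34.1% of all genes were higher and 18.1% to 24.2% lower. On totals without TMM, 30 were higher and 4 lower in liver (76 and 0 with TMM), 49 and 0 in fat (4 and 11) and 2 and 62 in hypothalamus (0 and 75). No paired analysis was possible because each tissue and diet has 1 library, which leaves no pairs for diets within a tissue. A fit of diet over all tissues, with tissue as a term, was not run, since the tissues of a diet share mice. In the tissue test, where diet is the term shared by tissues, leaving it out changed the counts in fat alone, to 4 higher and 13 lower. Of all genes, 39.7% were then higher and 26.1% lower in fat.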

Other observations

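DR-AL was also set against DR, a comparison chosen after the data were seen that does not use the AL libraries. In liver, 11 core members were past the 1.25-fold upward and 25 downward, with a median log2 fold change of -0.20 against -0.07 for all genes, of which 24.5% were past it upward and 32.6% downward. In fat, where the testis germ cell markers went from 678 CPM in DR to 3368 CPM in DR-AL and the epididymis markers from 3236 to 5125 CPM, 8 were past it upward and 0 downward, with a median of 0.18 against 0.16 for all genes, of which 38.7% were past it upward and 17.2% downward. In colon 0 were past it upward and 1 downward, where 6.86% and 8.94% of all genes were, and in both brain regions none was. Of all genes, 3.08% were past it upward and 7.79% downward in hypothalamus, and 5.16% and 1.61% in hippocampus.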
